A study of Mus musculus with 2 samples.

Results

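Antisense RNA genes are genes whose transcripts run along the strand opposite to another gene, and 145 of them were expressed in restimulated mouse macrophages. Members were selected on annotation and on measured TPM, as genes with at least 1 transcript typed antisense, none typed protein_coding or lincRNA, and a level of at least 1 TPM (a level scaled by transcript length and by the library's total) in both libraries of the alignment-derived gene table. The 145 members were 4.73% of the 3067 antisense RNA genes in the tables, which held 55536 annotated genes in all. By the same threshold 48.9% of the 21901 protein-coding genes and 2.58% of the 6053 genes with a lincRNA transcript were expressed. The members were thus chosen by their TPM, and their levels are given as a description with no test. The annotation typed 130 members antisense and 15 processed transcript at the gene level, and they lay on 20 chromosomes.

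Antisense transcripts are made from the strand opposite to a gene, often from a start shared with that gene's promoter or from inside its body. Some act in cis on the gene they overlap, as the imprinted transcripts Airn and Kcnq1ot1 do, and others are known mainly as hosts of small nucleolar RNAs or microRNAs. In macrophages, noncoding transcripts beside genes of inflammation, such as those next to Ptgs2, have been studied as part of the response to bacterial products. A polyadenylated RNA library keeps the antisense RNAs that carry a poly(A) tail.

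The cells were macrophages grown from bone marrow of C57BL/6J mice, exposed for 12 h to 100 ng/mL of Lipid A, washed and rested for 12 h, and exposed a second time to the same dose for 30 min. Lipid A, the lipid anchor of bacterial lipopolysaccharide, is bound by the receptor Tlr4; a separate treatment field says lipoprotein A, and which of these was used is not resolved by the labels. There was 1 group of 2 libraries, called replicate 2 and replicate 1 in the labels, with separate biosample records and a shared donor record, so the spread between them may hold technical and biological parts. No untreated cells were analysed here, and nothing below compares conditions.

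Total expected counts over annotated genes were 30780681 in replicate 2 and 41938419 in replicate 1. All 7 macrophage markers were detected in both libraries, with a summed level of 18004.76 TPM in replicate 2 and 16274.73 TPM in replicate 1. None of the 3 B cell, 2 NK cell, 2 erythroid or 2 mast cell markers reached 1 TPM in both. Of 4 T cell markers Cd3e, Cd3d and Cd8a did not and Cd4 did, with a summed level of 37.70 TPM in replicate 2 and 58.40 TPM in replicate 1. Of the neutrophil markers 2 reached 1 TPM in both libraries, and of the stroma markers all 4. The 5 neutrophil markers summed to 9.34 TPM in replicate 2 and 72.84 TPM in replicate 1, with Ly6g and Mpo below 1 TPM, and the 4 stroma markers to 594.93 and 524.88 TPM in the same order. The part of these markers in the members' levels was not tested.

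The members were low and short beside other expressed genes. Their median levels were 3.07 TPM in replicate 2 and 2.72 TPM in replicate 1, against 16.44 and 17.53 TPM for expressed protein-coding genes and 4.16 and 3.66 TPM for expressed lincRNA genes. Of the members 24 reached a mean of 10 TPM (16.6%, against 64.6% of expressed protein-coding genes), 3 reached 100 TPM and 45 lay under 2 TPM. Together they held 0.133% of all TPM in replicate 2 and 0.131% in replicate 1. Their merged exons spanned a median of 1577 bases, against 4496 for expressed protein-coding genes and 940 for antisense genes below the threshold. The median member had 3 exons, 64 had a single annotated transcript and 13 had a single exon. At this depth the median member held 46 counts in replicate 2 and 55 in replicate 1, so that many levels were imprecise. For 50 members the deposited lower bound of the TPM was under 1 in at least 1 library, and for 123 the deposited bounds of both libraries overlapped.

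A few genes carried much of the signal, and the 5 highest held 38.3% of the members' TPM in replicate 2 and 43.5% in replicate 1. Zfas1, a host gene of small nucleolar RNAs that starts beside the antiviral helicase gene Znfx1, had 121.83 TPM in replicate 2 and 83.80 TPM in replicate 1 (mean 102.8 ± 26.9 SD, n = 2). Its spliced transcript Zfas1-205 took 91.9% and 89.5% of that, and the transcripts with a retained intron took the rest. The gene 4930430E12Rik, which had no neighbour on the other strand, was at 91.48 and 83.05 TPM in the same order. Zeb2os (chr2:45110707-45114087, plus strand, mm10) lies inside Zeb2, which encodes a transcription factor of macrophage identity. Zeb2os was at 74.93 TPM in replicate 2 and 90.13 TPM in replicate 1, and Zeb2 at 128.10 and 122.78 TPM. These 3 genes were high in both libraries, and Zfas1 was the one of them that stood higher in replicate 2 by more than 0.5 on the log2 scale.

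Brip1os was at 30.69 TPM in replicate 2 and 34.37 TPM in replicate 1. Tug1 (chr11:3639785-3649673, minus strand), a long noncoding RNA whose transcripts were all typed antisense here, was at 28.99 and 26.26 TPM in the same order, spread over several transcripts, the highest of which held 31.5% and 34.9%. Both genes were at more than the gene on the other strand that shared most exon bases with them. For Brip1os this was Med13, a subunit of the Mediator complex, at 14.17 and 16.51 TPM. For Tug1 it was Morc2a, a chromatin ATPase, at 12.84 and 13.61 TPM. Med13 overlaps the end of Brip1os, whose start lies 177 bases from that of a different gene, which was not compared. The locus 2310009A05Rik, head-to-head with Pigb, was at 26.97 TPM in replicate 2 and 20.67 TPM in replicate 1. A530040E14Rik, in the cluster of Sp110-related genes, was at 32.42 and 23.38 TPM. Only 50.9% of its 31-base stretches were found in no other annotated transcript, so its reads may be split with its relatives. BE692007, beside the membrane protein gene Ms4a6c, was at 22.74 TPM in replicate 2 and 22.35 TPM in replicate 1, and its transcript with a retained intron held 98.4% and 98.3% of this.

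**Figure D1:**
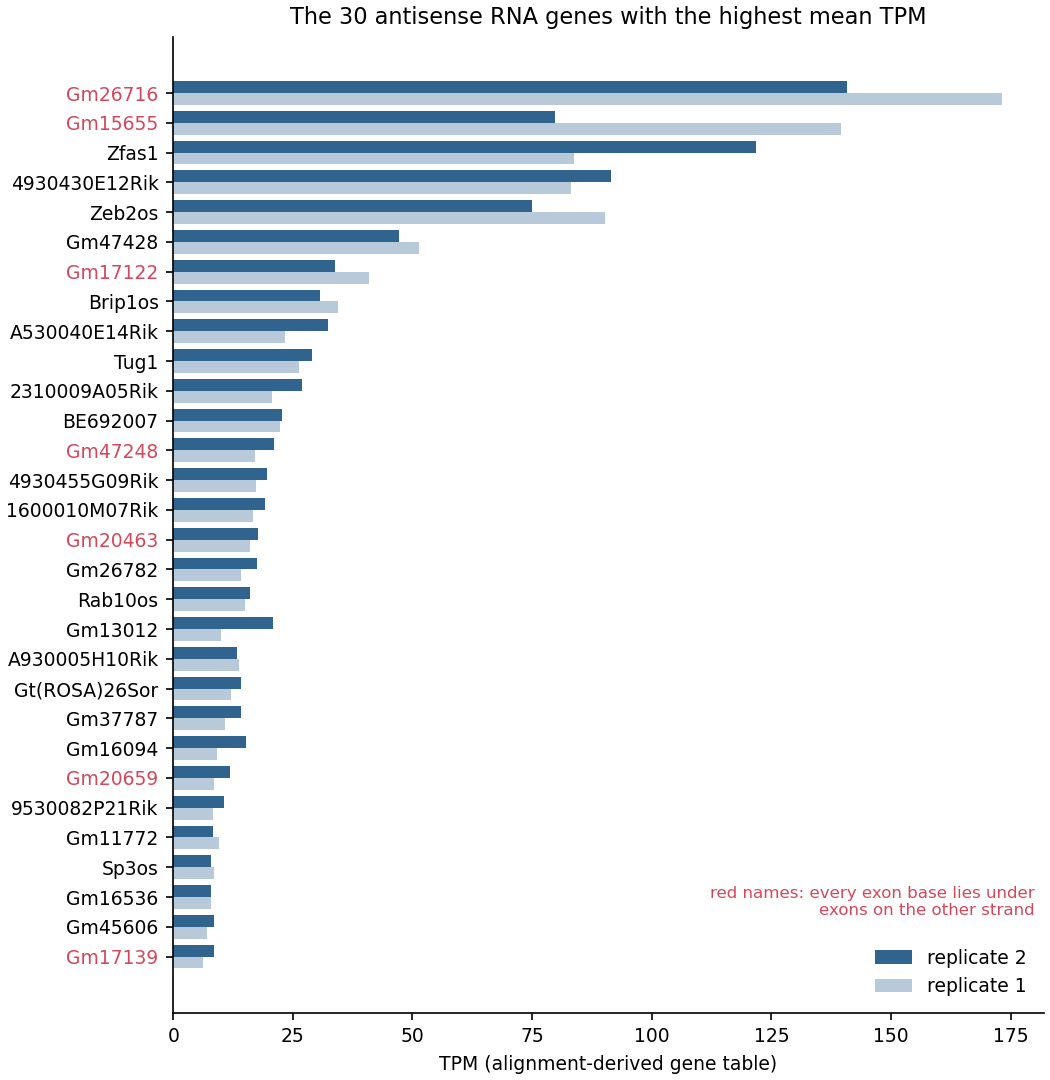
TPM of the 30 members with the highest mean level in the alignment-derived gene table, with a dark bar for replicate 2 above a light bar for replicate 1. Gm26716, Gm15655, Zfas1, 4930430E12Rik and Zeb2os stand apart from the rest, and names in red mark genes whose every exon base lies under exons of the other strand.

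Where these genes start bears on the pattern of head-to-head pairs described below, so the windows at the start of 5 members are shown, from 250 bases before to 50 bases after the RefSeq start in GRCm38.p6. Zfas1 is the highest member with a promoter entry at its annotated start, F630028O10Rik hosts the myeloid microRNA miR-223, and Gm16712, Gm15987 and Gm4285 are among the members most different between the libraries. Capitals mark matches, on either strand, to GGGCGG (the core of a GC box, bound by Sp factors) in Zfas1, to GAGGAA (a core of sites for the myeloid factor PU.1) in F630028O10Rik, to GGGCGG and CCAAT in Gm16712, to TTGCNNAA (C/EBP) in Gm15987 and to an NF-kB motif in Gm4285. Only the motifs named for a window are marked in it, so lower case does not mean that a motif is absent. GAGGAA also matched in Zfas1 and GGGCGG also matched in Gm4285.
Zfas1 (chr2:167062684-167062983, plus strand): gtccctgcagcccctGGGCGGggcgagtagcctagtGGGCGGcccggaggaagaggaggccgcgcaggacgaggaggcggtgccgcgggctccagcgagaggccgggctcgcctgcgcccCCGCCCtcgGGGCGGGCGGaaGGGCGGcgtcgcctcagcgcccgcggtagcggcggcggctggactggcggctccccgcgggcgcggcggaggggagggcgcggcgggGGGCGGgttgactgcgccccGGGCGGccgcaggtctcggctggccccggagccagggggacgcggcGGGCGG
F630028O10Rik (chrX:96239676-96239975, plus strand): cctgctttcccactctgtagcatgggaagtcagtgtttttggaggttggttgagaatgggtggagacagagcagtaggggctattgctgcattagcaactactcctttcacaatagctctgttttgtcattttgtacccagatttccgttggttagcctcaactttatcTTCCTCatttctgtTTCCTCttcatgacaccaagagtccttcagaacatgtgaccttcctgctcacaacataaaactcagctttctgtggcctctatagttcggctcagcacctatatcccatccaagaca
Gm16712 (chr17:55959352-55959651, minus strand): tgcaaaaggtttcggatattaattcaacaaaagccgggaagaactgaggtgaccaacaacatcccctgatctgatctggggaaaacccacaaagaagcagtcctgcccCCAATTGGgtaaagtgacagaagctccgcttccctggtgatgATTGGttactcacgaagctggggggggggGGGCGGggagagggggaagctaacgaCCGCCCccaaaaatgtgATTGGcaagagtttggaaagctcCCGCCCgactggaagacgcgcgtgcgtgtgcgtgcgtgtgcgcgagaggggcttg
Gm15987 (chr6:128974980-128975279, minus strand): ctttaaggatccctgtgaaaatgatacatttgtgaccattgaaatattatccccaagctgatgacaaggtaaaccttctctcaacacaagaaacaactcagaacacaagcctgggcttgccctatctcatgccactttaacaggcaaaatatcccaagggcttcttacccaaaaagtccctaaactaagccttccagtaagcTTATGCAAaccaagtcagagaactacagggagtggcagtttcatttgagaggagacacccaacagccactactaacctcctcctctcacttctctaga
Gm4285 (chr14:75844915-75845214, minus strand): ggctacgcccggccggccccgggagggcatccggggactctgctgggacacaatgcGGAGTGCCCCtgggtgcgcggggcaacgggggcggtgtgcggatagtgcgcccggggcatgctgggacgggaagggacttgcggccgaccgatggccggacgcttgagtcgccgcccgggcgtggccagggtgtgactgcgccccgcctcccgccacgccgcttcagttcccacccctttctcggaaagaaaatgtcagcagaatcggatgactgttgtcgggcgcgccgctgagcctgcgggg
The window of Zfas1 held 47 CpG dinucleotides and 9 GGGCGG matches, some of which overlap. That of F630028O10Rik held 2 CpG and 2 GAGGAA matches, and that of Gm15987 held 0 CpG. Those of Gm16712 and Gm4285 held 17 and 35 CpG.

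Of the members 75 had a RefSeq promoter entry under the same symbol, and for 58 it lay within 300 bases of the annotated start on the same strand. The median window of these 58 held 17.0 CpG, against 7 in all 32851 windows of 300 bases, 21 at expressed protein-coding genes and 5 at antisense genes that are not members. The 28 members that start head-to-head with another gene had a median of 29.5 CpG and the 30 others 8. A GGGCGG match was present in 32 of the 58 windows (55.2%, against 35.7% of all windows and 63.3% at expressed protein-coding genes), in 71.4% of the head-to-head windows and in 40.0% of the others. The NF-kB motif matched 9 windows (15.5%, against 8.46% of all windows and 10.4% at expressed protein-coding genes), and TATAAA 4 (6.90%, against 13.6% and 7.01%). Against the same sets of windows, GAGGAA matched 19 (32.8%, against 28.3% and 27.1%) and CCAAT 25 (43.1%, against 37.4% and 37.9%). TGANTCA, the AP-1 motif, matched 5 windows (8.62%, against 7.81% and 5.08%), TTGCNNAA 5 (8.62%, against 10.8% and 8.47%) and the cyclic AMP response element TGACGTCA 0 (against 1.79% and 3.06%). A match is a description of the letters, not a bound site.

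**Figure D2:**
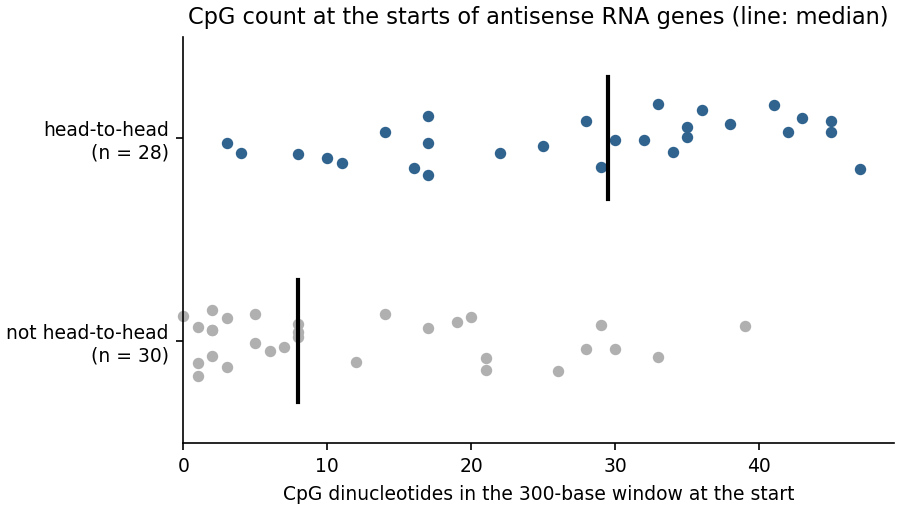
Number of CpG dinucleotides in the 300-base window at the start of 58 members, one point for each gene, with those that start within 1000 bases of a gene on the other strand above and the others below. The vertical lines are the medians, 29.5 and 8 CpG.

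Each member was placed beside its neighbour on the other strand, which is the gene sharing most exon bases with it, else most gene bases, else the nearest start within 1000 bases. A member can thus start head-to-head with a gene other than its neighbour. Gm16712, for example, starts 282 bases from a different gene but has Ebi3 as its neighbour. A neighbour was found for 140 members, and 135 of these neighbours were protein-coding. The start of 63 members lay within 1000 bases of the start of a gene on the other strand in a head-to-head arrangement, 58 of them with a protein-coding gene. Of all 728 antisense genes in that arrangement 8.65% were members, against 3.51% of the other 2339. Exons overlapped exons of the other strand in 109 members, by at least 50% of the exon bases in 27 and by all of them in 15. Members were 19.5% of the 77 antisense genes whose exons were fully covered in this way, 5.37% of the 1750 covered in part and 2.90% of the 1240 not covered. Among genes covered in part the share was higher where the neighbour was higher, at 1.58% for neighbours under 1 TPM, 4.30% from 1 to 10 TPM, 7.86% from 10 to 100 TPM and 25.7% at 100 TPM or more. The rise was not particular to that class. Genes not covered went from 1.11% to 2.90%, 5.26% and 7.69% over the same ranges. Fully covered ones were at 0%, 19.0%, 33.3% and 30.0%.

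The neighbours were mostly the higher partner. Of the 140 neighbours 122 were at 1 TPM or more, with a median of 23.44 TPM, 111 were above their member and 54 were at least 10 times above it. The member was higher in 28 pairs. Levels of members and of neighbours at 1 TPM or more were weakly related, with a Spearman rho of 0.265 across 122 pairs, and both came from the same libraries and annotation. In the 15 fully covered members rho was 0.893, and in the other 107 pairs it was 0.195. With the FASTQ-derived levels of the 15 covered members rho was -0.113. Most of these levels were tied at 0 TPM, so this value cannot show whether a relation is absent and is not a like measure to 0.893.

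**Figure D3:**
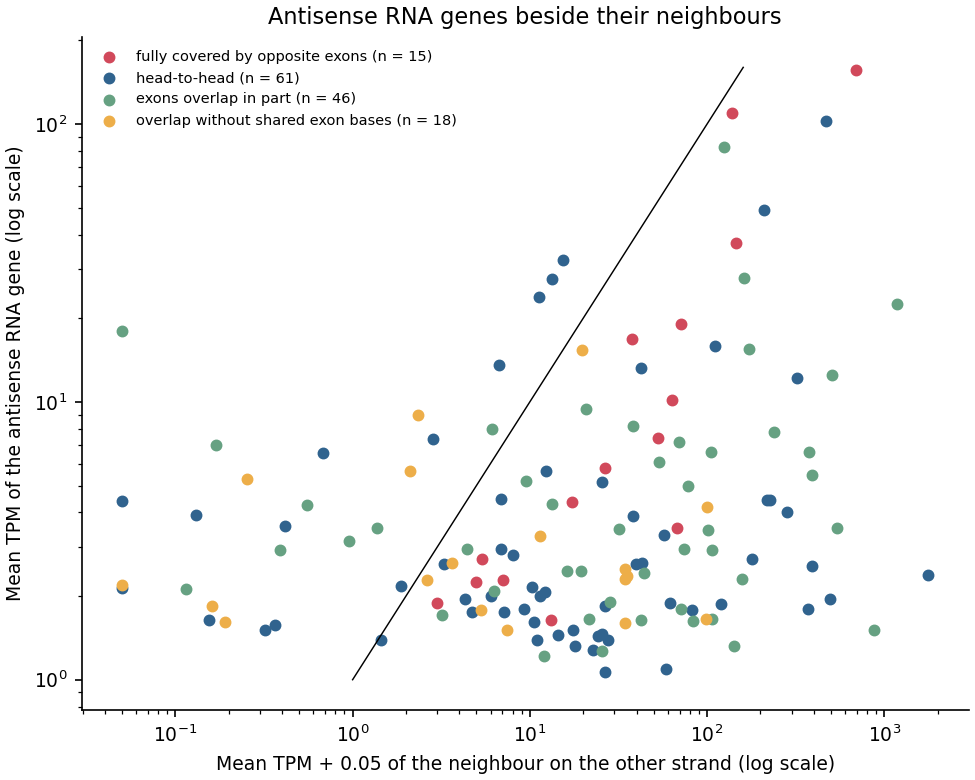
Mean TPM of each member against that of its neighbour on the other strand, both on log scales, with 0.05 added to the neighbour's level and colours for the arrangement. For some head-to-head members the neighbour is not the gene at their start. Points right of the line of equal level are members below their neighbour, and the 15 fully covered members all lie there.

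The fully covered members were the ones whose level depended most on the quantification. Gm26716 (chr4:130824394-130826313, minus strand, mm10) lies inside Sdc3, a cell-surface proteoglycan gene, and all of its 415 exon bases are exon bases of Sdc3 on the other strand. It was the highest member, at 140.70 TPM in replicate 2 and 173.25 TPM in replicate 1, where Sdc3 was at 643.44 and 749.22 TPM. In the FASTQ-derived table it was at 0.293 and 0.228 TPM. The same was seen at Gm17122 inside Coro1c, a gene for an actin-binding coronin, with 33.77 and 40.93 TPM in the gene table and 0 in both libraries of the FASTQ-derived table. Gm47248 inside Trim34a and Gm20463 inside Rnf5, a ubiquitin ligase gene, likewise had 17.63 TPM or more in replicate 2 and 15.96 TPM or more in replicate 1 in the gene table and 0 in the other.

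Gm15655 (chr8:115705078-115707233, plus strand), inside the gene of the macrophage transcription factor Maf, was an exception. It was at 79.73 TPM in replicate 2 and 139.49 TPM in replicate 1, and at 52.8 and 101 TPM in the FASTQ-derived table. Maf itself was at 125.13 and 151.90 TPM. Gm42893, a covered member of low level, was a further exception, with 1.65 TPM in replicate 2 and 2.91 TPM in replicate 1. In the FASTQ-derived table Gm42893 was at 0.749 and 2.41 TPM. The 15 covered members had median levels of 5.30 TPM in replicate 2 and 6.26 TPM in replicate 1 in the gene table, and 0.00 TPM in both libraries in the FASTQ-derived table, where 13 of them were under 1 TPM. Covered members held 25.2% of the members' TPM in replicate 2 and 32.7% in replicate 1, against 3.98% and 8.06% by the FASTQ-derived table. A median of 5.37% of their 31-base stretches was found in no other annotated transcript on either strand. The sources used here do not state if the authors counted by strand, so reads of these members and of the genes they lie under cannot be told apart with certainty.

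Outside this class the tables were closer. Median levels of the 61 other head-to-head members were 2.53 TPM in replicate 2 and 2.02 TPM in replicate 1 in the gene table and 2.53 and 2.44 TPM in the FASTQ-derived table. Over all members 115 were within 2 times between the tables, 14 were at least 4 times lower and 5 at least 4 times higher in the FASTQ-derived table. The rank correlation of the tables was 0.514 across 145 members and 0.730 without the covered ones. Members were chosen by their TPM in the gene table, which favours genes that are higher there. A further 63 antisense genes reached 1 TPM in both libraries in the FASTQ-derived table only and are not in these counts. The split of 14 and 5 and the correlations therefore describe the members alone, not the balance of the tables. Gm47428, which overlaps the ferritin pseudogene Ftl1-ps1, was at 47.12 TPM in replicate 2 and 51.39 TPM in replicate 1, and at 2.35 and 4.13 TPM in the FASTQ-derived table. Of its 31-base stretches 50.7% were found in no other annotated transcript on either strand. The others were shared most often with Gm10252 in the same orientation and with the ferritin gene Ftl1 in the opposite one. In the other direction Gm15726, inside the ubiquitin ligase gene Mid1, was at 1.05 and 2.24 TPM and at 45.6 and 50.2 TPM in the FASTQ-derived table. The gene 4930430E12Rik was also higher there, at 227 TPM in both libraries. Every 31-base stretch of Gm27177 was also found in transcripts of other genes in the same orientation, most often of Gm16867. Its 5.87 and 4.51 TPM therefore cannot be assigned to Gm27177 alone.

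**Figure D4:**
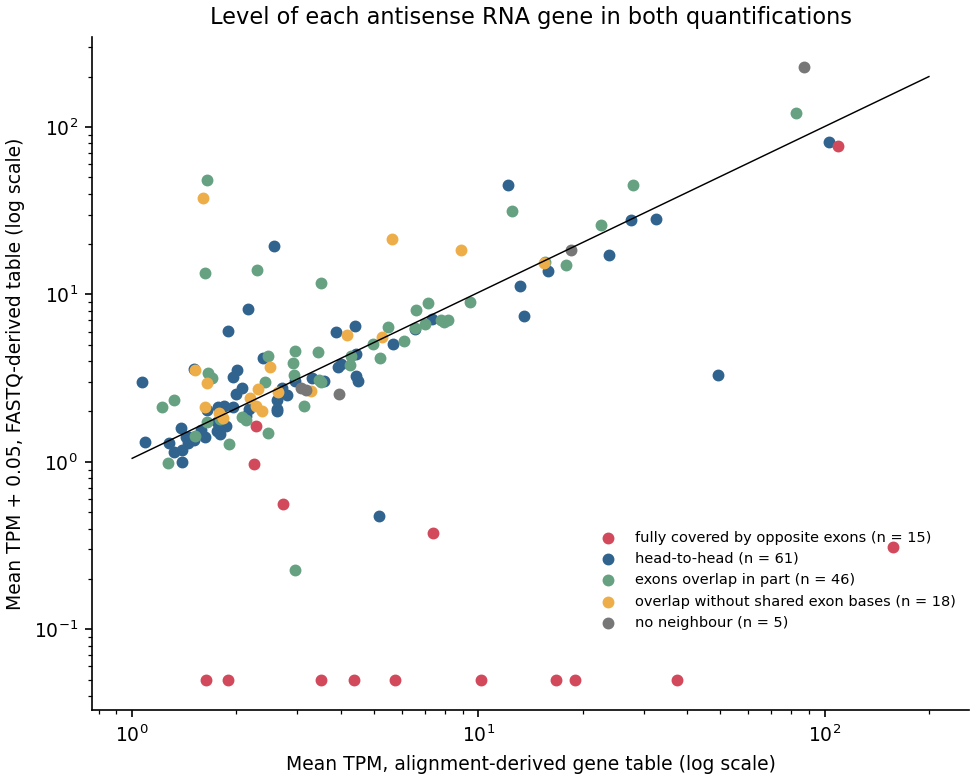
Mean TPM of each member in the FASTQ-derived table, with 0.05 added, against that in the alignment-derived gene table, both on log scales and with colours for the arrangement. Most members lie near the line of equal level, while 13 of the 15 fully covered members fall below 1 TPM in the FASTQ-derived table.

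The libraries were then compared by the log2 ratio of replicate 2 over replicate 1, on counts scaled by TMM with 0.5 added, for genes with at least 20 counts in both. There is 1 library on each side, so there is no test, and the intervals are exact binomial ones that cover counting error only. The ratio could be formed for 101 members, and 44 had too few counts. At least 2-fold higher in replicate 2 were 6 of the 101 members (5.94%), against 1.94% of the 12471 genes that passed the same filter and 7.33% of 191 lincRNA genes. At least 2-fold lower were 2 members (1.98%), against 0.521% of all genes and 1.57% of lincRNA genes. The median ratio was 0.19 for members, 0.17 for lincRNA genes, -0.03 for protein-coding genes and -0.02 for all genes. Above 0 were 67 members (66.3%, against 46.4% of all genes and 65.4% of lincRNA genes), so the lean was not particular to the members. With at least 100 counts in both libraries, 3 of 40 members were 2-fold higher (7.50%, against 1.02% of all genes and 5.88% of lincRNA genes). On the lower side there was 1 (2.50%, against 0.313% and 0%).

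Gm16712 had the highest ratio, 1.50 (95% interval 1.16 to 1.87), from 210 counts in replicate 2 and 101 in replicate 1. It overlaps the end of Ebi3, which encodes a cytokine subunit shared by interleukin-27 and interleukin-35 and had a ratio of -0.41. Gm15987, which hosts Mir7649, followed with 1.48 (1.05 to 1.94), from 133 counts in replicate 2 and 65 in replicate 1. Its neighbour Clec2g was at 0.00 TPM in both libraries. AC119228.1 (chr19:29373417-29384471, minus strand) lies inside Cd274, the gene of the checkpoint ligand PD-L1, and had a ratio of 1.19 (1.01 to 1.38), whereas Cd274 had -0.38. It reached 7.53 TPM in replicate 2 and 3.42 TPM in replicate 1, and Cd274 was at 332.04 and 449.01 TPM.

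Gm13012, inside Ece1, the gene of an endothelin-converting enzyme, had 20.87 TPM in replicate 2 and 9.99 TPM in replicate 1 and a ratio of 1.07. Ece1 was at 25.55 TPM in replicate 2 and 13.81 TPM in replicate 1, although its ratio on counts was 0.27. A730011C13Rik, inside the lipid kinase gene Pi4kb, had a ratio of 1.26, where Pi4kb had -0.38. Gm4285 starts 129 bases from Tpt1, which encodes an abundant cytoplasmic protein, and the pair leaned the same way: Gm4285 had a ratio of 1.25 (0.53 to 2.04) and Tpt1 0.84. On the lower side Gm26674 (chr10:8884637-8886878, plus strand), whose first part overlaps that of the scaffold gene Sash1, had a ratio of -1.09 (-1.42 to -0.78), from 111 counts in replicate 2 and 324 in replicate 1, with Sash1 at -0.05. Gm48512, covered by exons of the kinesin gene Kif3c, had -1.08 (-1.82 to -0.40), from 24 counts in replicate 2 and 70 in replicate 1. In the FASTQ-derived table Gm48512 was at 0 TPM in both libraries. Next were Gm15655 with -0.88, Gm42893 with -0.76 and Gm28417 with -0.75.

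Ratios of members were set beside those of their neighbours, which for some head-to-head members were not the genes at their start. In 85 pairs both genes had at least 20 counts in each library. Across them Pearson's r was 0.245 (Spearman's rho 0.179), with the same libraries behind both values. Ratios of the same sign were found in 43 of the 85 pairs, which is close to an even split. The median ratio in these pairs was 0.19 for members and -0.05 for neighbours. By arrangement the median was 0.29 in 43 head-to-head members, 0.18 in 34 with partial exon overlap, 0.01 in 11 that overlap without shared exon bases and -0.38 in 9 fully covered ones. Gm37305 and Ccnl1, which encodes a cyclin that acts in splicing, start 491 bases apart and had ratios of 0.79 and 1.02.

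**Figure D5:**
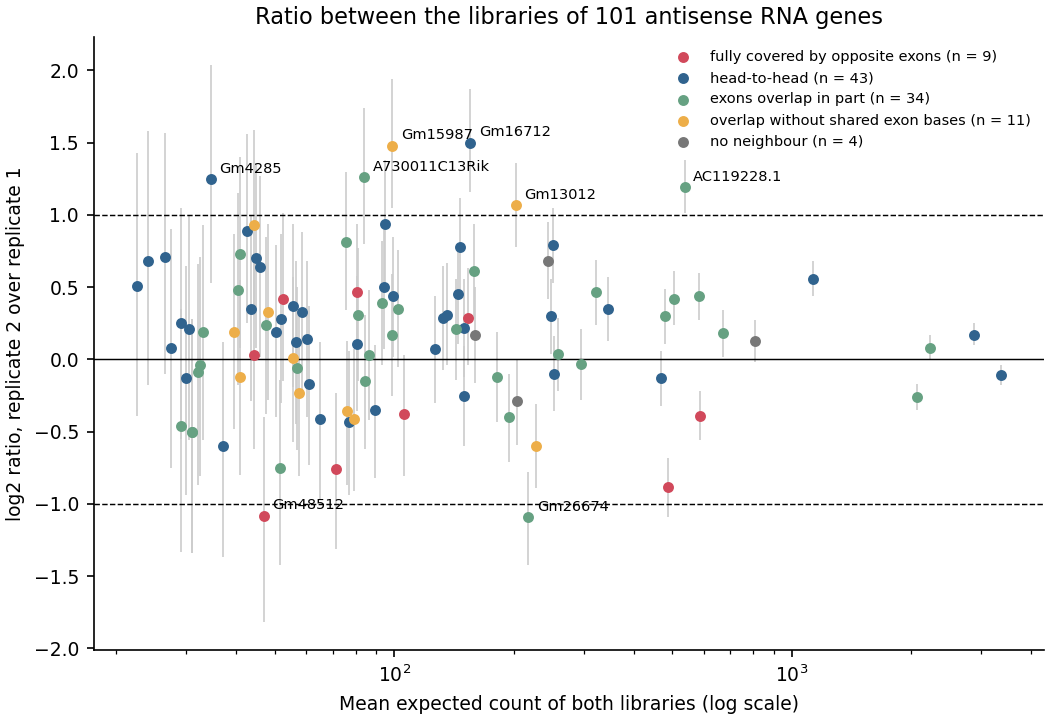
The log2 ratio of replicate 2 over replicate 1 against the mean expected count, on a log scale, for 101 members with at least 20 counts in both libraries. Bars are exact 95% counting intervals and dashed lines the 2-fold limits, beyond which the 6 higher and 2 lower members are named.

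The members that host small RNAs were examined next, since the host RNA can be seen in such a library while the small RNA was not. Zfas1 holds Snord12 and 2 further small nucleolar RNAs on its own strand, and 1810032O08Rik holds Snord1a, Snord1b and Snord1c, which guide chemical modification of ribosomal RNA. F630028O10Rik holds Mir223, the microRNA of granulocytes and monocytes, and Gm15987 holds Mir7649. All 11 small RNA entries on the strand of a member had 0 counts in both libraries, made with a size range of 250 to 400. F630028O10Rik was at 2.77 TPM in replicate 2 and 3.58 TPM in replicate 1 (152 and 255 counts), with a ratio of -0.29. The mature microRNAs of these 2 hosts are shown, from RefSeq in GRCm38.p6, to place the products that the host genes lead to, with the seed (bases 2 to 8) in capitals.
mmu-miR-223-3p (chrX:96242884-96242905, plus strand): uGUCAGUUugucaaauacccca
mmu-miR-223-5p (chrX:96242842-96242864, plus strand): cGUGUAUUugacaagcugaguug
mmu-miR-7649-3p (chr6:128974840-128974862, minus strand): uCUCUCCAgcacugcuuguuucu
mmu-miR-7649-5p (chr6:128974874-128974895, minus strand): uGACAGCAgugcuguagacaug
The 4 seeds differ from each other.

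A list of 20 noncoding RNAs known by name was also examined, not all of them typed antisense. Of these 16 had an entry in the tables, 9 were antisense by the rule and 3 were members, where members were 4.73% of all antisense RNA genes. The list was picked by name, and the difference in share was not tested. Besides Zfas1 these were Airn, the imprinted transcript that overlaps the start of the receptor gene Igf2r, with 2.21 TPM in replicate 2 and 2.78 TPM in replicate 1, and Hotairm1 in the HoxA cluster, with 3.93 and 2.36 TPM from 8 and 10 counts. Kcnq1ot1 had 255 counts in replicate 2 and 195 in replicate 1, yet its length left it at 0.13 and 0.08 TPM. Tsix was at 0.03 and 0.00 TPM, and Nespas and the antisense entry of Mirt2 had 0 counts. Dleu2, Jpx, Ftx, Lncpint, Ptgs2os2, Mirt1 and Wincr1 have transcripts typed lincRNA and so fell outside the rule.

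No member had as its neighbour any of 84 listed genes of inflammation and the early response. The list is not complete, and members lay beside immune genes outside it, such as Gm16712 beside Ebi3. Of the 84 genes 7 had an antisense gene as their neighbour on the other strand, and all 7 antisense genes were below 1 TPM in both libraries of the gene table. Members were 4.73% of all antisense RNA genes, and 0 members among 7 is near that share. The count therefore shows nothing particular to these loci. Il1bos had 4 counts in each library, while Il1b was at 263.14 TPM in replicate 2 and 71.44 TPM in replicate 1. Ptgs2os, which starts 68 bases from the prostaglandin synthase gene Ptgs2, had 5 counts in replicate 2 and 0 in replicate 1, and Ptgs2 was at 49.43 and 7.89 TPM. Junos beside Jun was at 0.60 TPM in replicate 2 and 0.56 TPM in replicate 1, and Gm44710 beside Zfp36 at 0.49 and 0.52 TPM. In the FASTQ-derived table both passed the threshold, Junos with 1.13 TPM in replicate 2 and 1.32 TPM in replicate 1 and Gm44710 with 2.07 and 1.79 TPM. Gm45091, Gm11175 and Gm47009, beside Cebpa, Jund and Irak3, had 2 counts or fewer in each library. At counts this low a difference between the libraries was not detectable.

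The threshold of 1 TPM cut through a continuous range. Just inside it were Gm16124 with 1.01 TPM in replicate 2 and 1.43 TPM in replicate 1, 1810021B22Rik with 1.02 and 1.12 TPM and Gm45472 with 1.16 and 1.02 TPM. Just outside were Gm15964 with 0.99 and 1.08 TPM, Gm17435 with 1.45 and 0.98 TPM and Tmem51os1 with 0.98 and 0.97 TPM. A further 69 antisense genes reached 1 TPM in 1 library, 41 of them in replicate 2 and 28 in replicate 1, and 1983 had no count in either. In the FASTQ-derived quantification, 186 antisense genes reached 1 TPM in both libraries, of which 123 were members, or 84.8% of the members and 66.1% of the 186. The highest of the 63 that were not members was Gm15564, beside Parp9, with 26.0 TPM in replicate 2 and 25.0 TPM in replicate 1 in that table and 0.00 TPM in both in the gene table.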

How the data were processed

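Polyadenylated RNA was sequenced from 2 libraries of 1 group, each from 1 µg of RNA and sized from 250 to 400, per the labels. The authors deposited, per the file headers and the deposited notes, 3 tables per library on the genome build mm10 with GENCODE annotation M21. For genes and for transcripts, tables derived from the alignments give expected counts, TPM and lower and upper bounds of the TPM, whose level is not stated. The FASTQ-derived table holds estimated counts and TPM per transcript, which the authors deposited separately. The aligner, the quantification tools and the use of strand in counting were not given in the sources used here. A further 97 entries that name no annotated gene and 26248 entries with numeric names were left out. Together they held 0.0667% of counts in replicate 2 and 0.0526% in replicate 1.

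Expected counts were rounded, TMM factors over all genes came from edgeR 4.0.16 (R 4.3.3) and served scaling alone, and 0.5 was added to scaled counts. Ratios needed 20 counts in both libraries and carry exact (Clopper-Pearson) binomial intervals at 95%. With 1 library on each side no test was possible, and a 2-fold rule was used. DESeq2 1.42.0 size factors, total counts, other filters and the FASTQ-derived table were alternatives. Neighbours, exon overlap and 31-base stretches shared between transcripts came from the GENCODE annotation and transcripts, and stretches were compared on both strands. Promoter windows and microRNAs came from RefSeq in GRCm38.p6, matched by symbol. In the promoter search the NF-kB motif was searched as a degenerate pattern of its usual core, and N in other motifs stands for any base. Differences between tables were taken with 0.5 TPM added. Python 3.11.15, pandas 2.3.3, numpy 2.4.6, scipy 1.17.1 and matplotlib 3.10.9 were used, and the interval arithmetic and ratios were tested on simulated data.

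The members and lists were chosen with earlier results of these data known. Named members were the 12 highest, the 5 highest and 5 lowest ratios, the 5 largest differences between tables, the 3 nearest to the threshold on each side and every listed known antisense gene, each with its neighbour. The hosts of small RNAs, Gm37305, Gm13012, Gm27177 and the genes beside inflammatory genes were named after their values were seen.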

Additional observations from a re-analysis of the deposited data

How the results depend on the processing

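The number of members was 82 at 2 TPM and 219 at 0.5 TPM. It was 186 by the FASTQ-derived table and 147 with genes that also have a lincRNA transcript, and leaving out a library gave 173 to 186. Their share of TPM was 0.135% in the FASTQ-derived table, 0.0938% without fully covered members, an alternative chosen after seeing the data, and 0.0723% as a share of expected counts. Leaving out a library gave 0.131% to 0.133%, and a median level of 2.72 to 3.07 TPM. The median ratio lay between 0.18 and 0.20 under every alternative run. Members at least 2-fold higher in replicate 2 numbered 13 with no filter on low counts and 3 at 100 counts, and those lower 5 and 1. Without fully covered members 1 was lower. DESeq2 size factors and total counts gave the same 6 and 2 genes. With FASTQ-derived counts 5 of the 6 were still past the limit, and Gm15133 passed it as well. On the lower side Gm26674 was still past the limit, Gm48512 had too few counts for a ratio, and Gm42893 passed it as well. Exon overlap of at least 50% held for 27 members, and head-to-head starts for 45 within 500 bases and 73 within 2000. Among 29 named members the FASTQ-derived TPM lay further from the gene table than the SD between the libraries for 18. No paired analysis was possible because there was 1 group of libraries. Depth left 44 of 145 members with under 20 counts in a library and so without a ratio.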

Other observations

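Members beside immune genes outside the list above are given here as 5 examples chosen after their values were seen, with no count over all members. Gm16094 starts 469 bases from Sp110, an interferon-inducible nuclear body gene, and was at 15.19 TPM in replicate 2 and 9.20 TPM in replicate 1, where Sp110 was at 296.65 and 346.62 TPM. Gm37787, inside the immune receptor gene Slamf7, was at 14.26 and 10.72 TPM in the same order, and Slamf7 at 467.83 and 540.20 TPM. Gm13822 starts 37 bases from Oasl1, an interferon-stimulated gene, and had 4 and 8 counts but 19.9 and 19.1 TPM in the FASTQ-derived table, and Oasl1 was at 372.53 and 410.83 TPM in the gene table. Gm28913, inside the kinase gene Ikbke, had 5 and 7 counts and 18.2 and 9.86 TPM in the FASTQ-derived table, and Ikbke was at 157.18 and 158.52 TPM in the gene table. Gm11131 starts 675 bases from the class I gene H2-Q4 and was at 2.13 and 1.78 TPM, and H2-Q4 was at 426.65 and 558.95 TPM.

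Symbols of 17 members end in os or os1, which marks the gene they oppose, and Zeb2os and Brip1os were the highest of these. The others given here were picked after their values were seen. Dnmt3aos, inside the DNA methyltransferase gene Dnmt3a, was at 6.23 TPM in replicate 2 and 6.95 TPM in replicate 1, where Dnmt3a was at 126.20 and 85.33 TPM. Sp3os was at 7.85 and 8.54 TPM and the transcription factor gene Sp3 at 38.16 and 38.54 TPM. Plxna4os1 was at 4.10 and 6.42 TPM, while its neighbour Plxna4, a semaphorin receptor gene, was at 0.17 and 0.24 TPM. Gt(ROSA)26Sor, the locus widely used for transgene insertion in mice, was at 14.23 TPM in replicate 2 and 12.15 TPM in replicate 1.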
